A study of Homo sapiens with 4 samples.

Results

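The features described here are 41 long non-coding RNA (lncRNA) features with reads in vesicles from p53 shRNA cells and almost none in the controls. They were chosen from 147844 lncRNA features, in a table of 155642 features in all, by their raw counts. Each has 15 or more counts in both p53 shRNA libraries, at most 1 in each control library and a sum under 100 over the 4 libraries. The counts of all 4 libraries chose them, so these counts are given as a description and carry no test.

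RNA of 18 to 40 nt was sequenced from the small extracellular vesicles that HT29 cells released at passages 5 to 15. HT29 is a long-established line from a human colon cancer. The 2 control libraries came from HT29 cells carrying a non-targeting shRNA, and the 2 p53 shRNA libraries from HT29 cells carrying an shRNA against p53. The labels do not say whether a group's libraries came from separate cultures, whether a line was 1 clone, or which promoter drove the shRNA. The p53 transcript and the coding markers of the cell line were not analysed here. The libraries are bulk samples, in which fewer vesicles with a fragment and fewer copies per vesicle cannot be told apart. The control libraries held 1099694 (replicate 1) and 938754 (replicate 2) counts and the p53 shRNA libraries 2611032 (replicate 1) and 1940942 (replicate 2), so that the p53 shRNA libraries were 2.78 and 2.07 times as deep as the shallowest control.

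Long non-coding RNAs are transcripts that are not translated into protein. Many overlap other genes, run antisense to them or start beside their promoters, and catalogues of them also take in pseudogenes and pieces of introns. Vesicles carry mostly fragments of cellular RNA, so a read on an lncRNA feature may come from any transcript of that stretch of genome, and fragment counts need not follow the level of the whole RNA. p53 is a transcription factor whose known targets include the gene of the microRNA miR-34a. Whether the p53 of HT29 cells has this activity was not examined here.

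The counts of a feature came from only part of it. In the whole table, 0 of 66527 features without a base free of other features had a count, against 46090 of the 89115 with such bases. The bases of a feature that no other feature covers, on either strand, are called its unshared bases below. The members had at least 116 unshared bases (median 1321), and 19 of the 41 had every base unshared. Positions are of GRCh38, and genes are those of GENCODE 29.

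Unshared stretches of 4 members are shown, all of them for CTC-338M12.4 and LINC01731 and a part for AC011595.1 and TPTE2P2. They were read from GENCODE 29 transcripts in the feature's own orientation, and capitals mark bases inside a run of 25 that also occurs, on either strand, in a transcript of another gene. CTC-338M12.4 is shown because it had the most counts of the members with 0 in both controls, and AC011595.1, LINC01731 and TPTE2P2 because they differ in how far other genes hold their sequence. The 215 bases at chr5:181246901-181247115 (plus strand) are all the unshared bases of CTC-338M12.4. For AC011595.1 the exon at chr12:106103163-106103378 (plus strand), which holds no such run, is given, and for LINC01731 all 3 exons on the minus strand, chr1:148271884-148272035, chr1:148272900-148273083 and chr1:148280666-148280749. For TPTE2P2, whose unshared bases lie in 9 stretches, the 3 at chr13:52297766-52297828, chr13:52309196-52309249 and chr13:52323280-52323388 (minus strand) are given.
CTC-338M12.4: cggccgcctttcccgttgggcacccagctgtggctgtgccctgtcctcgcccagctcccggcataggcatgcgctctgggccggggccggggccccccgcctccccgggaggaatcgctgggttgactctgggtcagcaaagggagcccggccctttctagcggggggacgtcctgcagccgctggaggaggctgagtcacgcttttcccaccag
AC011595.1, exon at the lowest coordinate: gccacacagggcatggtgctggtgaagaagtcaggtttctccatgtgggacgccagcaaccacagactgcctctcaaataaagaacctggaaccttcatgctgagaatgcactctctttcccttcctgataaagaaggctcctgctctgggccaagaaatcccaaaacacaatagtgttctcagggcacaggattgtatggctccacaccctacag
LINC01731, exon at the lowest coordinate: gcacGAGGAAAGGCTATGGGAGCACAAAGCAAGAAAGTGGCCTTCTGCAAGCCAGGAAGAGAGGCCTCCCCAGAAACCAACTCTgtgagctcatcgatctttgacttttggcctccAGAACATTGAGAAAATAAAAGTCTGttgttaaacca
LINC01731, middle exon: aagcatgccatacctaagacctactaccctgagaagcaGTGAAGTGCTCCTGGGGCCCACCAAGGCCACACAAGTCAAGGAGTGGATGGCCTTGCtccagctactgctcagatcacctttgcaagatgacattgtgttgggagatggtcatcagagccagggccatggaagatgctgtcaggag
LINC01731, exon at the highest coordinate: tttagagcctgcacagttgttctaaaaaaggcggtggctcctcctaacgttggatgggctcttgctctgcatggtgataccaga
TPTE2P2, from 52297766: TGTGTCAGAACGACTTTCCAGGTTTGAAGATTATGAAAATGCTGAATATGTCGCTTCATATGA
TPTE2P2, from 52309196: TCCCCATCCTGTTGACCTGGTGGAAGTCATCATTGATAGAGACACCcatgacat
TPTE2P2, from 52323280: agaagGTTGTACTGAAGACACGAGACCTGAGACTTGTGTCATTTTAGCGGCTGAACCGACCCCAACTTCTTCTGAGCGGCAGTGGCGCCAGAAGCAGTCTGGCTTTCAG
CTC-338M12.4 had 0 of 191 such runs in a transcript of another gene. Introns and sequence between genes were not searched, nor were matches shorter than 25 bases. AC011595.1 had 60 of 681, spread over 285 genes, none of them in the exon shown. LINC01731 had 90 of 348, all 90 of them in AC239803.3. TPTE2P2 had 204 of 253, all of them in AL137058.1, so its reads cannot be assigned to this copy with certainty. Among members not shown, P4HA3-AS1 had 147 of 1556 such runs, spread over 2259 genes. The feature over MINDY2 had 140 of 3271, spread over 2622 genes. Only 18 of the 41 members had a run to search. The features beside CHSY1, in TMEM117 and beside AC013727.1 had none and were not checked.

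Across the members, counts ran from 15 to 52 (median 23) in p53 shRNA replicate 1 and from 15 to 63 (median 19) in replicate 2. The controls had 0 or 1 by the rule, with 8 members at 0 in both, 23 with 1 count in all and 10 with 1 count in each. Summed over the members, control replicates 1 and 2 held 23 and 20 counts and p53 shRNA replicates 1 and 2 held 1028 and 944. In CPM (counts per 1e6 of the library total), this is 20.9 and 21.3 against 394 and 486. Both p53 shRNA libraries were above both controls for each member, as the rule requires. At the share of the p53 shRNA libraries, the controls together would have held between 13.9 and 43.0 counts of each member (median 18.4), where 0 to 2 were counted. The rule sets both sides of this comparison, so a gap was certain for every member and nothing is read from it.

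**Figure D1:**
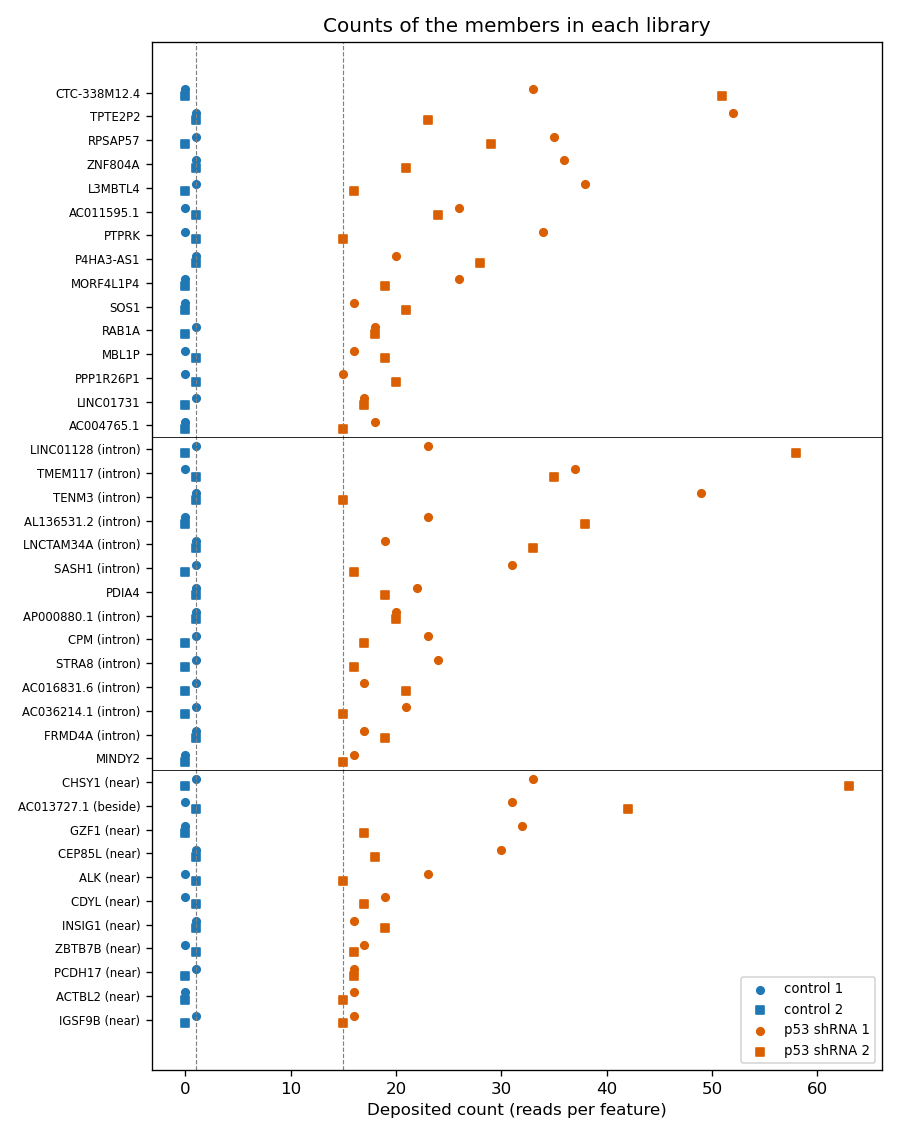
Deposited counts of 40 of the 41 members (x axis, reads per feature) in the 4 libraries, grouped by position: exonic features, features of the intronic class, and features outside genes, from top to bottom. Blue points are control and orange points p53 shRNA libraries, and the dashed lines mark the limits of 1 and 15 counts; 9 members have their smaller p53 shRNA count exactly at 15.

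Many members lay close to the limit. The smaller of the p53 shRNA counts was 15 in 9 members and 15 or 16 in 17, and it was 20 or more in 12. Among the lncRNA features just outside, 3 had a smaller p53 shRNA count of 14 and 16 had one of 13, for example 0 and 0 against 52 and 14 counts, 1 and 0 against 14 and 33, 1 and 1 against 17 and 14, and 0 and 0 against 55 and 13. Among the members just inside, the feature 167742 bases from ACTBL2 on chromosome 5 had 0 and 0 against 16 and 15. The feature over MINDY2 had the same counts, and the feature near IGSF9B had 1 and 0 against 16 and 15. Of the 9026 unshared bases of the MINDY2 feature, 3125 lie in MINDY2, on the opposite strand. In AC090515.4, on the feature's own strand, lie 5963, all outside its exons. The member in introns of AC036214.1 and LINC01607 on chromosome 8 had 1 and 0 against 21 and 15. A difference of 1 or 2 reads thus separates these features from those not chosen. The p53 shRNA replicates differed in the CPM of members, with 14 higher in replicate 1 and 27 in replicate 2. Of the members, 23 were within 1.5-fold, and 6 differed by more than 2-fold, up to 3.39-fold. lncRNA features held 58.5% and 85.6% of all counts in p53 shRNA replicates 1 and 2, and 65.3% and 72.2% in control replicates 1 and 2. The part of these shares in the members' CPM was not tested.

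Depth was examined by down-sampling. With the counts as deposited, 41 lncRNA features met the rule and 0 met its mirror image, 15 or more counts in both controls and at most 1 in each p53 shRNA library. When every library was thinned to the 938754 counts of the shallowest, the exact mean over all thinnings was 1.51 features high in p53 shRNA and 3.52 high in control. At a minimum of 10 counts the means were 11.8 and 16.8, where the deposited counts gave 115 and 2. At a minimum of 5 counts they were 115 and 106, where the deposited counts gave 725 and 40. The excess of features nearly restricted to p53 shRNA was therefore seen at the deposited depths, and at equal depth the numbers in each direction were close at minimums of 5 and 8 and higher for the controls at 10 and 15.

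A limit scaled to depth gave close numbers in the 2 directions. Scaled to 938754 counts, the limit of 15 becomes 6 counts in p53 shRNA replicate 1 and 8 in replicate 2, and with these limits 41.5 features were high in p53 shRNA and 39.7 high in control on average. Of the 41.5, 24.6 were members. With the limit of 15 kept, 0.903 of the 41 members met the rule on average. After thinning, the members' expected counts ran from 5.39 to 18.7 in p53 shRNA replicate 1 and from 7.25 to 30.5 in replicate 2. Thinning to equal depth after TMM scaling, which was added after the data were examined, gave fewer features in the p53 shRNA direction than in the control direction, with 0.0256 against 5.26 features at a minimum of 15 and 39.9 against 112 at a minimum of 5.

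The TMM factors, which correct for differences in composition, were 0.637 for control replicate 1, 1.12 for control replicate 2, and 1.13 and 1.25 for the p53 shRNA libraries, and the part of control replicate 1 in this shift was not tested.

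**Figure D2:**
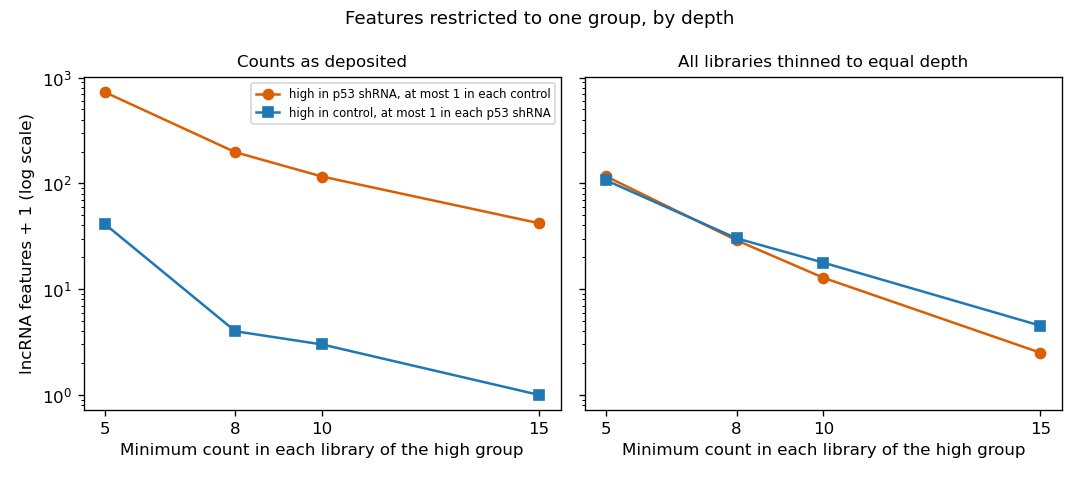
Number of lncRNA features plus 1 (y axis, log scale) that are high in one group and at most 1 count in each library of the other, against the minimum count in the high group (x axis). In the deposited counts the p53 shRNA line (orange) lies above the control line (blue) at each minimum; with all libraries thinned to equal depth they come close, at 28.0 and 29.3 features for a minimum of 8.

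Few features with such counts were this low in the controls. Of 887 lncRNA features with 15 or more counts in each p53 shRNA library and a sum under 100, the members are 4.62%, and of 45013 lncRNA features with any count they are 0.0911%. These shares describe the rule and nothing is read from them. In the 887, the controls together had a median of 11 counts, 55 features had a highest control count of 2, and 158 had one of 15 or more. In CPM after TMM scaling, both p53 shRNA libraries lay above both controls in 41.7% of the 887, in 16.9% of the lncRNA features with a count and in 22.6% of the 2780 features tested. Both lay below both controls in 4517 of the 45013 lncRNA features with a count and in 18.7% of the 2780.

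**Figure D3:**
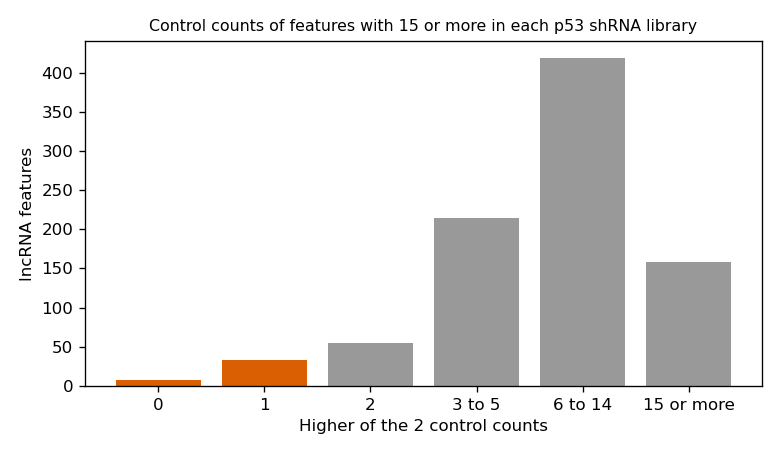
Number of lncRNA features (y axis) by the higher of their 2 control counts (x axis), for the 887 with 15 or more counts in each p53 shRNA library and a sum under 100. The members are the orange bars, 8 features at 0 and 33 at 1, and the most common class is 6 to 14 counts with 419 features.

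Across all features, edgeR's quasi-likelihood test called 0 of 2780 (0%) at an adjusted p of 0.05. At an unadjusted p under 0.05 it had 121 higher (4.35%) and 217 lower with p53 shRNA, and the DESeq2 Wald test called 29, of which 0 were higher. The balance of unadjusted calls turned with the settings, to 308 higher and 170 lower on library totals, 2027 and 677 without a filter, 468 and 318 without control replicate 1, 73 and 67 without p53 shRNA replicate 1, and 129 and 57 without p53 shRNA replicate 2. Of the members, 29 passed the filter on low counts, which they could pass through the p53 shRNA libraries alone, and 12 did not. On the log2 scale of CPM with a prior count of 2, the median difference over the 41 members was 2.36 (from 1.74 to 3.88), against 0.70 over the 887 features and 0.19 over the 45013. With the 8 members at 0 in both controls set against 3 control counts, the median log2 ratio of pooled counts was 3.47.

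The member with the most counts among those with 0 in both controls was CTC-338M12.4, a processed transcript on the opposite strand of RACK1, which encodes a scaffold protein of the ribosome. No read of it was counted in either control, against 33 and 51 in p53 shRNA replicates 1 and 2. Set against 3 counts over both controls, the limit that a count of 0 allows by counting error alone, its ratio was 9.12. The same counts chose CTC-338M12.4, so this ratio is a description and sets no floor. Its 215 unshared bases, shown above, are 71.2% G and C and lie in an exon of CTC-338M12.4 and an intron of RACK1. Just 1 other member with 0 in both controls had 20 or more in each p53 shRNA library. It has 1718 unshared bases between 1273410 and 1326734 on chromosome 20 and is of the intronic class described below. Of these bases, 1598 lie in SDCBP2, which encodes a syntenin and is on the opposite strand, 40 of them in its exons. Another 120 lie in introns of RAD21L1 and SNPH. On the feature's own strand, 952 of the bases also lie in SDCBP2-AS1, outside its exons, and 101 in exons of AL136531.3. It had 23 and 38 counts, a ratio of 6.62 against 3 control counts, with the same limit.

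For members with 1 or 2 control counts the ratio is given with its counting interval, which covers counting error only. The same counts chose the members, so a ratio or an interval above 1 is set by the rule. The feature beside CHSY1, the gene of a chondroitin sulfate synthase, lies 184 bases from that gene at chr15:101252116-101254462. Its counts were 1 and 0 in control and 33 and 63 in p53 shRNA libraries, which gives a pooled ratio of 31.3 (95% interval 5.48 to 1248). The feature in an intron of TMEM117, a membrane protein gene, lies at chr12:44277252-44280151 and had 0 and 1 against 37 and 35 counts (ratio 23.5, 4.08 to 939). In CPM after TMM scaling, TMEM117 was at 0.477 ± 0.675 (SD, n = 2) in control and 13.5 ± 1.29 (SD, n = 2) with p53 shRNA. The wide intervals follow from the single control count of each feature. Over the 33 members with 1 or 2 control counts the ratio ran from 5.70 to 31.3 (median 11.7). Over the 8 with none, the ratio against 3 control counts ran from 3.37 to 9.12.

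Of the members, 15 were exonic, with at least 50% of their unshared bases in exons. Another 15 had at least 50% in genes but less than 50% in exons and are called intronic, and the other 11 lay outside genes. The member at PDIA4 is in the intronic class with 59.6% of its unshared bases in the gene and 43.8% in exons, so that most of its bases in the gene are exonic. These are 36.6%, 36.6% and 26.8%, beside 42.6%, 31.0% and 26.4% of the 887 features and 51.0%, 25.2% and 23.9% of the 45013. At least 50% of the unshared bases lay in a protein-coding gene in 20 members (48.8%, beside 46.6% of the 887). At least 50% lay in exons of protein-coding genes, translated or not, in 5 (12.2%, beside 24.0% of the 887 and 24.7% of the 45013). A base in a RefSeq promoter window, the stretch around a gene's start, was held by 9 members (22.0%, beside 21.6% of the 887, and by 5580 of the 45013). The positions of the members were thus close to those of other features of like p53 shRNA counts, with fewer in exons of coding genes. That difference was not tested.

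**Figure D4:**
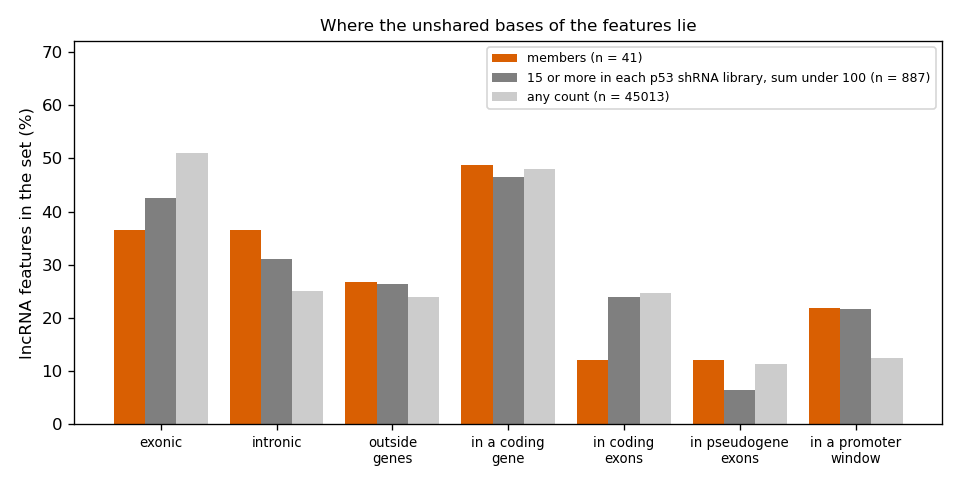
Percentage of lncRNA features (y axis) by where their unshared bases lie (x axis), for the 41 members, the 887 features with 15 or more counts in each p53 shRNA library and a sum under 100, and the 45013 with any count. Intronic stands for at least 50% in genes and less than 50% in exons. The first 3 classes exclude each other and the other 4 can overlap; the members and the 887 have near-equal shares in promoter windows, 22.0% and 21.6%.

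Exonic members included 5 on pseudogenes, 12.2% of the members beside 6.54% of the 887 and 11.4% of the 45013. RPSAP57, a copy of the ribosomal protein gene RPSA inside an intron of RAB27B, which encodes a GTPase of vesicle secretion, had 1 and 0 against 35 and 29 counts. MORF4L1P4, a copy of the chromatin gene MORF4L1, had 0 and 0 against 26 and 19. PPP1R26P1, inside an intron of the tumour suppressor gene RB1, had 0 and 1 against 15 and 20. TPTE2P2, a copy of the phosphatase gene TPTE2, had 1 and 1 against 52 and 23, and MBL1P, a mannose-binding lectin pseudogene, 0 and 1 against 16 and 19. The runs of 25 bases found in other genes were 39 of 808 for RPSAP57, 0 of 952 for MORF4L1P4, 162 of 3276 for PPP1R26P1 (123 of them in PPP1R26) and 164 of 1184 for MBL1P (all in MBL3P). An exact match is a strict measure, and reads of 18 to 40 nt can align to a copy with a mismatch, so counts on these copies remain uncertain.

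Another 5 exonic members lay in exons of protein-coding genes. The member in ZNF804A, a zinc finger gene, had only 116 unshared bases, the fewest of all, between 184598721 and 184599048 on chromosome 2, of which 65.5% are untranslated and 34.5% coding sequence of the gene, on the strand opposite to the feature. It was counted once in each control and 36 and 21 times with p53 shRNA, 491 counts per kilobase of unshared sequence where the median member had 36.3. The member in SOS1, an activator of RAS, had 0 and 0 against 16 and 21 counts, with 88.4% of its 396 unshared bases coding. The member in RAB1A, a GTPase of transport from the endoplasmic reticulum, had 1 and 0 against 18 and 18, and its 368 unshared bases were all untranslated. Those in L3MBTL4 and PTPRK, the latter a receptor phosphatase, had 1 and 0 against 38 and 16 and 0 and 1 against 34 and 15, so that replicate 1 gave most of their counts. The handling of strand was not stated, and reads on these 5 cannot be told from fragments of the coding transcripts.

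The other 5 exonic members follow annotated non-coding genes. CTC-338M12.4 is described above. AC011595.1, antisense to the kinase gene NUAK1, had 0 and 1 against 26 and 24 counts, and AC004765.1, antisense to the kinase gene WNK1, had 0 and 0 against 18 and 15. P4HA3-AS1 had 1 and 1 against 20 and 28, and LINC01731 1 and 0 against 17 and 17. LINC01731 thus had equal counts in the p53 shRNA libraries, unlike CTC-338M12.4.

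Of the 15 members of the intronic class, 10 lay in a protein-coding gene, 7 of them only on the strand opposite to it. The member in TENM3 had 1 and 1 against 49 and 15, the widest gap between p53 shRNA counts among the intronic members that lie in coding genes. LINC01128, of which the unshared bases lie in an intron at 844499 to 846365 on chromosome 1, had 1 and 0 against 23 and 58. The 7 members of this class at AC016831.6, AP000880.1, SASH1, STRA8, FRMD4A, PDIA4 and the carboxypeptidase M gene had smaller p53 shRNA counts between 16 and 20.

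Host genes were compared with lists of known genes. Here 0 of 28 p53 target genes, 0 of 19 abundant lncRNAs and none of the marker genes of colon epithelium (11), fibroblasts (9), blood (8), nerve and muscle (6) or liver and serum (3) lay over a member's unshared bases. Of 18 listed names of p53-related lncRNA genes, 1 did: MIR34AHG, the host of miR-34a, which runs opposite to LNCTAM34A. The member there is on the strand of LNCTAM34A. Whether a listed name is another name of LNCTAM34A was not examined. The unshared bases of that member, 9192155 to 9194363 on chromosome 1, lie in introns of both genes. It had 1 and 1 against 19 and 33 counts (ratio 8.47, 2.23 to 71.8), a ratio below the median of the 33 members with a control count.

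Outside genes, the feature at 103855829 to 103869616 on chromosome 2, beside AC013727.1, had 0 and 1 against 31 and 42 counts (ratio 23.8, 4.14 to 952). Part of its unshared bases lie in introns of AC013727.1 and AC013727.2. The feature 328 bases from GZF1, a zinc finger gene on chromosome 20, had 0 and 0 against 32 and 17. The other 9, CHSY1's neighbour included, had smaller p53 shRNA counts between 15 and 33. No 2 members overlapped a common gene or shared a base, and they fell on 14 chromosomes, with 6 on chromosome 2, the most on any.

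Neighbouring features were examined in the same way. Other lncRNA features with a count lay within 50 kb of 39 members. Their summed CPM after TMM scaling were higher in both p53 shRNA libraries than in both controls beside 5 members (12.8%) and lower in both beside 5 (12.8%). Beside the other features of the 887, these shares were 15.5% and 17.5%. The neighbours of the CHSY1 feature held the most reads of those that were higher, 20 and 7 in control against 206 and 201 in p53 shRNA libraries over 5 features. Those of P4HA3-AS1 had 1 and 2 against 33 and 67 over 2 features. Those of the members near ZNF804A, GZF1, PPP1R26P1, INSIG1 and AC016831.6 were lower in both p53 shRNA libraries. Near ZNF804A and GZF1 this rests on few reads, 3 and 3 against 4 and 1, and 1 and 2 against 1 and 1. The reads were 5 and 15 against 16 and 14 near PPP1R26P1 and 17 and 21 against 31 and 18 near INSIG1. Near AC016831.6 they were 36 and 52 against 70 and 94.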

How the data were processed

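Small RNA libraries of HT29 vesicles, 2 control and 2 p53 shRNA, were analysed from 1 deposited table. The authors deposited whole-number counts of reads per annotated RNAcentral feature, not normalized. The build GRCh38 and the tools BWA 0.7.17, Subread 1.6.3 and bcl2fastq 2.19 are named, with no order, per the submitters' processing notes. The assignment of reads over several features, and of strand, was not stated. No count column belonged to another sample. The members and lists were chosen with earlier results of these data known. Feature positions and lengths are as the authors deposited them.

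Unshared bases were found from the annotation with strand ignored. Positions were compared with GENCODE 29 by bedtools 2.31.1, and promoter windows were those of RefSeq on GRCh38. Thinning used exact hypergeometric means in scipy 1.17.1, with the limit on the sum kept. The test over all features was edgeR 4.0.16 (quasi-likelihood, TMM, filter on low counts, Benjamini-Hochberg) in R 4.3.3. It was run on simulated counts with large changes and far less spread than these libraries, whose biological coefficient of variation was 0.672. That run shows that the code works and does not measure the power of the test here. Alternatives were DESeq2 1.42.0, other scalings, filters and limits, the replicate number as a block, and each library left out. Counting intervals of ratios are exact 95% binomial intervals on TMM-scaled sizes. They and the floor of 3 counts cover counting error only. Since no label names separate cultures, a p-value reflects the spread of these libraries alone, and that spread may be technical.

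Members named were, by rule, the 10 highest in the lower p53 shRNA library, those with 0 control counts and 20 or more in each p53 shRNA library, the 6 nearest the limit, those on listed genes, those that share a gene (none did) and the 5 with the fewest unshared bases. A member that the rule names is not reported here and not drawn. Other members were named after their values were seen, to describe each position class. Features without a gene were named by the nearest protein-coding gene.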

Additional observations from a re-analysis of the deposited data

How the results depend on the processing

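The number of members depended on each limit of the rule. It was 41 as given, 115 and 12 with a minimum of 10 and 20 counts in each p53 shRNA library, 8 and 96 with a maximum of 0 and 2 counts in each control, and 43 without a limit on the sum. Leaving 1 library out of the rule gave between 116 features (without p53 shRNA replicate 1) and 328 (without p53 shRNA replicate 2), with 181 and 137 without control replicates 1 and 2. It was 1.51 with every library thinned to the shallowest total, 41.5 with limits scaled to depth, and 0.0256 with thinning to equal TMM-scaled depth. Of the members, 0 had expected counts of 15 or more in both p53 shRNA libraries at the depth of the shallowest library and 1 at the depth of control replicate 1. The median log2 difference of the members was 2.36, and 3.53 with a prior count of 0.5; it was 2.63 on library totals and 2.35 with DESeq2 size factors, and from 2.21 to 2.84 with a library left out. Of 147 values of 21 named members, 60 moved by at least the standard error of the member's log2 difference. That error comes from 2 libraries a group and was 0.0055 for AC004765.1, where very small shifts count as moved. The direction of the 147 values was fixed by the choice of members and shows no stability. Over all features, 0 were called in the edgeR fits with other scalings, without a filter and with a library left out, and the DESeq2 Wald test called 29. With the replicate number as a block edgeR called 103 features (12 higher, 91 lower). Libraries of the same number deviated from their group means together (Pearson r = 0.39 across 2780 features, which are not independent). There are 2 libraries a group and no label ties the numbers. Whether libraries of the same number were prepared together is not stated and was not tested. Thinning to TMM-scaled depth was added after the data were examined. Limits that admit more or fewer counts change the number by construction; for the other shifts, the cause was not tested. With 15 to 63 reads in 1 group and 0 or 1 in the other, ratios of single members are imprecise.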
